A study of Mus musculus with 12 samples.

Results

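A set of 10 markers of thymic tuft cells was followed in RNA from sorted thymic epithelial cells. The members were a fixed list of symbols: Pou2f3, Gnat3, Gnb3, Plcb2, Trpm5, Dclk1, Avil, L1cam, Il25 and Chat. All 10 of 10 were found among the 31332 genes of the count table, and all 10 were among the 17268 genes that passed the filter on low counts. The cells came from thymuses of C57BL6/J mice 2 months old and were sorted by flow cytometry into medullary (mTEC) and cortical (cTEC) thymic epithelial cells. The 12 libraries formed 4 groups of 3. Cre mTEC (libraries 4, 5 and 6) and Cre cTEC (libraries 10, 11 and 12) had the genotype FoxN1-Cre LXRalpha-flox LXRbeta-flox. Control mTEC (libraries 1, 2 and 3) and control cTEC (libraries 7, 8 and 9) had the genotype LXRalpha-flox LXRbeta-flox, so the floxed alleles of both liver X receptor genes (Nr1h3 and Nr1h2) were shared by every group and the Cre recombinase was the labelled difference. FoxN1 is a transcription factor of thymic epithelium, so the Cre is driven in cortical and medullary cells alike and is not specific to tuft cells. The labels do not say which libraries came from separate animals, so the p-values measure the spread between these libraries, which may be technical.

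Tuft cells are chemosensory epithelial cells with a tuft of stiff microvilli, known from gut, airway and thymus, and in the thymus they lie in the medulla among the mimetic cells, mTECs that take on programmes of peripheral tissues. Their identity depends on the transcription factor Pou2f3. Their receptors signal through the taste pathway, in which a G protein activates a phospholipase, calcium is released and the cation channel Trpm5 opens. Their known products include the cytokine Il25, acetylcholine made by Chat, and eicosanoids.

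The sort and the genotype were checked first. Library totals lay between 4804697 and 11159013 counts, which made a single count worth 0.0898 to 0.194 CPM (a gene's counts relative to the library total). Of the marker lists used to check the sort, 6 of 7 mTEC markers were higher and 7 of 7 cTEC markers lower in mTEC among Cre libraries, and 7 of 7 were higher and 7 of 7 lower among control libraries. Nr1h2 had 96.1, 71.1 and 70.4 CPM in Cre mTEC libraries 4, 5 and 6, against 110, 126 and 132 CPM in control mTEC libraries 1, 2 and 3. Nr1h2 had 119, 102 and 124 CPM in Cre cTEC libraries 10, 11 and 12, against 168, 158 and 192 CPM in control cTEC libraries 7, 8 and 9. Nr1h3 was low throughout and did not separate the genotypes, with 7.91, 9.19 and 5.85 CPM in Cre mTEC and 5.84, 6.13 and 6.93 CPM in control mTEC, and 8.05, 7.58 and 9.50 CPM in Cre cTEC against 10.7, 6.39 and 6.00 CPM in control cTEC. The counts cover whole genes, and the sources used here do not say which exons the floxed alleles remove, so neither gene's level measures the deletion itself. On the leading axis of a principal component analysis (2000 genes), Cre mTEC libraries 4 and 5 stood at -51.7 and -49.2 and library 6 at -64.8, against -70.1 to -73.3 for control mTEC. On the same axis Cre cTEC library 11, which had the fewest counts, stood at 50.6, against 60.5 to 76.1 for the other cTEC libraries.

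The promoters of 4 members are shown, picked after the values below were seen because their levels moved together across libraries. Plcb2 moved with them too and is not shown. Octamer fragments are marked because Pou2f3 belongs to the octamer-binding family of transcription factors. Within groups, the level of Pou2f3 itself had Pearson correlations of 0.18 with Avil, 0.19 with Trpm5, -0.04 with Chat and -0.1 with L1cam. Each promoter is the 250 bases before the RefSeq start (build GRCm38.p6), written 5′ to 3′ on the gene's strand, with octamer fragments in capitals. Avil lies at chr10:127000459-127000708 on the plus strand, Trpm5 at chr7:143094643-143094892, L1cam at chrX:73880791-73881040 and Chat at chr14:32465910-32466159, the last 3 on the minus strand.
Avil: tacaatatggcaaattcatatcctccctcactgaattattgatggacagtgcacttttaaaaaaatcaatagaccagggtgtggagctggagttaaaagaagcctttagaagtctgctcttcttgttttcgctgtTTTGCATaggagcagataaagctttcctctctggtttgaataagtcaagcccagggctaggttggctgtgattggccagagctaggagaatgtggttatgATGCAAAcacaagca
Trpm5: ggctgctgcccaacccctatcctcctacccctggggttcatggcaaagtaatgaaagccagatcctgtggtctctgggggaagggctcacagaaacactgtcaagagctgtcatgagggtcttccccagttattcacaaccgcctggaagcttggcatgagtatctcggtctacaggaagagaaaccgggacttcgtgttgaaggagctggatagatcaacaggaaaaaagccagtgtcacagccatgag
L1cam: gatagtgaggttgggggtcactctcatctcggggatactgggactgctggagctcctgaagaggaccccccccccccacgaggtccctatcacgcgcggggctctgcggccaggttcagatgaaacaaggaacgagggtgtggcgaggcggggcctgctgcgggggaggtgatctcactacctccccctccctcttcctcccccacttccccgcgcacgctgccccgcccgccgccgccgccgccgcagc
Chat: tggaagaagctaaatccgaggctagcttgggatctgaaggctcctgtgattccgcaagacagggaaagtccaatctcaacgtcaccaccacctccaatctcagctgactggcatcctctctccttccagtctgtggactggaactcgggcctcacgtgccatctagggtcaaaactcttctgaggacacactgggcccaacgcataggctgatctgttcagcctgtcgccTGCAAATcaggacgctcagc
RefSeq promoters were matched for 7 of the 10 members (9 windows), all but Pou2f3, Gnb3 and Il25. The whole octamer ATGCAAAT was searched on both strands and was in 0 of the 9 windows, against 1.6% of all 32851 promoters. The fragment ATGCAAA was in 1 of the 9 windows, that of Avil, which held it 2 times, against 4.12% of all promoters. The overlapping fragment TGCAAAT was in 1 of the 9 windows, that of Chat, against 3.56% of all promoters. These matches describe letters in the windows and carry no measurement of binding.

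Each member's level is given as CPM, after trimmed-mean (TMM) scaling of the libraries, in libraries 4, 5 and 6 for Cre mTEC, 1, 2 and 3 for control mTEC, 10, 11 and 12 for Cre cTEC, and 7, 8 and 9 for control cTEC. Pou2f3, the transcription factor that tuft cells require, had 28.0, 25.1 and 26.9 CPM in Cre mTEC and 28.1, 31.2 and 34.9 CPM in control mTEC. It had 14.8, 11.7 and 10.1 CPM in Cre cTEC and 10.5, 14.8 and 12.7 CPM in control cTEC. The genotypes were separated in mTEC by a narrow margin and overlapped in cTEC. Every mTEC library was above every cTEC library for Pou2f3 and for 8 more members, 9 of 10 in all, with Il25 the exception.

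A group of 4 members belongs to the taste signalling chain. Gnat3 (gustducin, the alpha subunit of the taste G protein) had 20.1, 11.9 and 21.5 CPM in Cre mTEC and 21.1, 31.0 and 36.2 CPM in control mTEC, with 4.25, 4.66 and 4.97 CPM in Cre cTEC and 4.67, 5.55 and 6.14 CPM in control cTEC. Library 5 was the lowest mTEC library and library 6 stood just above control library 1. Gnb3, a beta subunit of the same class of G proteins, had 20.1, 22.0 and 34.7 CPM in Cre mTEC and 27.4, 44.6 and 48.9 CPM in control mTEC, with 5.14, 6.61 and 6.58 CPM in Cre cTEC and 5.71, 4.54 and 5.00 CPM in control cTEC. Libraries 4 and 5 were below all 3 control mTEC libraries and library 6 was within their range.

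Plcb2, the phospholipase that the G protein activates, had 19.2, 19.0 and 33.3 CPM in Cre mTEC and 35.5, 32.9 and 46.4 CPM in control mTEC, with 6.37, 9.52 and 7.60 CPM in Cre cTEC and 10.0, 9.08 and 9.28 CPM in control cTEC. Trpm5, the calcium-activated channel at the end of the chain, had 39.4, 42.5 and 78.5 CPM in Cre mTEC and 72.7, 72.3 and 86.5 CPM in control mTEC, with 19.7, 17.1 and 17.3 CPM in Cre cTEC and 21.4, 21.2 and 17.1 CPM in control cTEC. In both genes libraries 4 and 5 lay well under the control mTEC range, library 6 lay inside it, and the genotypes overlapped in cTEC.

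Dclk1, a microtubule-associated kinase widely used to stain tuft cells, had 156, 171 and 204 CPM in Cre mTEC and 181, 161 and 179 CPM in control mTEC, with 52.6, 67.8 and 46.8 CPM in Cre cTEC and 49.3, 47.8 and 41.8 CPM in control cTEC. Its genotypes overlapped in both cell types. Avil (advillin, an actin-binding protein of the microvillus bundle) had 52.5, 55.9 and 105 CPM in Cre mTEC and 102, 112 and 125 CPM in control mTEC, with 31.9, 31.5 and 25.9 CPM in Cre cTEC and 44.3, 39.4 and 45.7 CPM in control cTEC. Avil separated the genotypes in cTEC, and in mTEC library 6 alone overlapped the controls. L1cam, a cell adhesion molecule of the immunoglobulin superfamily, had 11.6, 12.0 and 23.0 CPM in Cre mTEC and 26.1, 25.7 and 28.2 CPM in control mTEC, with 5.70, 6.41 and 6.58 CPM in Cre cTEC and 9.85, 9.42 and 8.71 CPM in control cTEC. L1cam was the only member whose genotypes stood apart in both cell types, without overlap in mTEC or in cTEC.

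Il25, the cytokine by which tuft cells act on type 2 innate lymphocytes, had 17, 8 and 17 counts in Cre mTEC and 14, 10 and 12 counts in control mTEC, with 5, 7 and 4 counts in Cre cTEC and 4, 12 and 4 counts in control cTEC. As CPM these were 2.59, 1.20 and 2.31 in Cre mTEC and 1.26, 1.09 and 1.57 in control mTEC, with 0.559, 1.36 and 0.585 in Cre cTEC and 0.692, 2.02 and 0.571 in control cTEC. At these counts its cell types and genotypes overlapped. Chat, the enzyme that makes acetylcholine, had 4.41, 4.82 and 8.02 CPM in Cre mTEC and 7.10, 8.75 and 9.67 CPM in control mTEC, with 2.91, 2.72 and 2.63 CPM in Cre cTEC and 4.15, 2.86 and 2.43 CPM in control cTEC. Chat again had libraries 4 and 5 under the control mTEC range and library 6 within it.

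**Figure D1:**
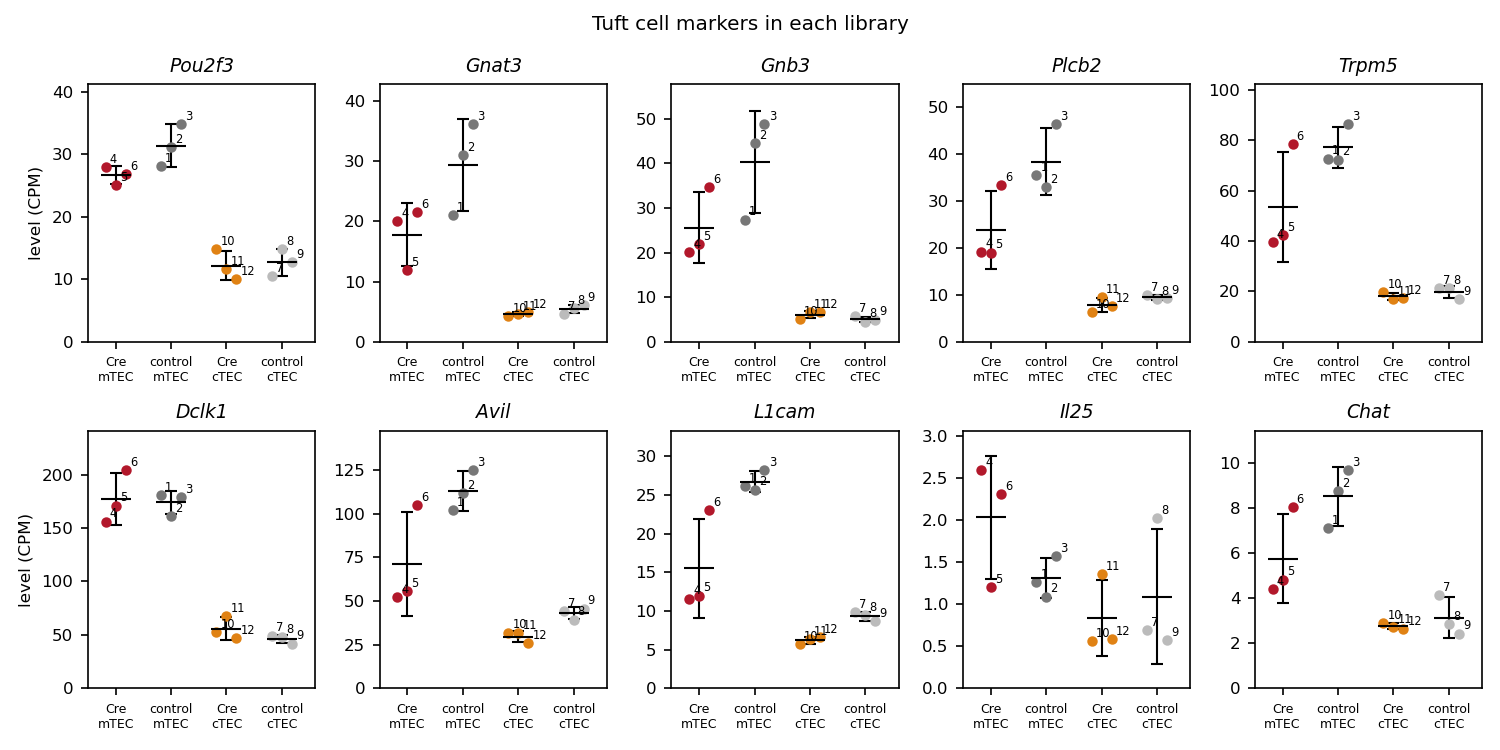
Level of each of the 10 tuft cell markers in CPM (linear axis from 0) in the 3 libraries of each group. Points are libraries with their numbers, horizontal lines are group means and bars are SDs. For 6 members (Trpm5, Avil, Gnb3, Gnat3, Plcb2 and Chat), Cre mTEC libraries 4 and 5 lay under every control mTEC library while library 6 lay within the control range. This pattern was described after its values were seen. Libraries 4 and 5 both lay under every control mTEC library for 21.3% of all genes, and the share that also had library 6 within the range was not counted.

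Per kilobase of the longest annotated transcript, mean levels in Cre mTEC were 23.5 CPM per kilobase for Avil, 22.2 for Dclk1, 13.9 for Gnb3, 13.1 for Gnat3, 13.0 for Trpm5, 10.2 for Pou2f3, 4.63 for Plcb2, 3.03 for L1cam, 2.01 for Chat and 1.91 for Il25. In control mTEC the same means were 37.3 for Avil, 21.8 for both Dclk1 and Gnb3, 21.6 for Gnat3, 18.7 for Trpm5, 12.0 for Pou2f3, 7.44 for Plcb2, 5.21 for L1cam, 2.98 for Chat and 1.23 for Il25. Both orders ran from the actin-binding protein to the effectors Chat and Il25, with differences between Dclk1, Gnb3 and Gnat3 in control mTEC smaller than their spread. Exons of 4 members overlap those of another gene in GENCODE M21, and the libraries do not mark strand. Avil shares 165 bases with Tsfm (21.4 to 39.6 CPM) and Trpm5 shares 220 bases with Tssc4 (30.7 to 56.5 CPM), both on the opposite strand. L1cam shares 100 bases with Arhgap4 (7.26 to 23.3 CPM) on its own strand, and Dclk1 shares 87 and 27 bases with Gm42609 and Gm21954, so the levels of these 4 are uncertain by the reads in those stretches.

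Tuft cell markers were higher in medullary than in cortical epithelium in both genotypes. With edgeR's quasi-likelihood test, 10 of the 10 members were higher in Cre mTEC than Cre cTEC libraries, where 25.1% of all genes tested were higher and 24.5% lower. In the control libraries 9 of 10 were higher in mTEC, all but Il25, where 29.3% of all genes tested were higher and 30.0% lower. The median log2 fold change of the members was 1.46 in Cre and 1.71 in control libraries, beside -0.02 and -0.05 over all genes tested. In bulk RNA of sorted cells, fewer tuft cells and less of a transcript per tuft cell cannot be told apart, here or in the genotype comparisons.

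The taste G protein subunits had the largest medullary excess of the members. For Gnb3 the log2 fold change of mTEC over cTEC was 2.09 ± 0.25 (SE) in Cre libraries (adjusted p = 9.01e-07) and 2.98 ± 0.25 in control libraries (adjusted p = 5.72e-09). For Gnat3 it was 1.95 ± 0.25 in Cre and 2.41 ± 0.24 in control libraries, for Plcb2 1.64 ± 0.22 and 2.01 ± 0.21, and for Trpm5 1.57 ± 0.21 and 1.96 ± 0.20. Dclk1 had a log2 fold change of 1.67 ± 0.13 in Cre and 1.91 ± 0.14 in control libraries. Pou2f3 (1.12 ± 0.16 in Cre and 1.30 ± 0.16 in control libraries), Avil (1.26 ± 0.20 and 1.39 ± 0.19) and L1cam (1.33 ± 0.23 and 1.52 ± 0.21) had smaller excesses.

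Of the effector genes, Chat was higher in mTEC by 1.06 ± 0.30 on the log2 scale in Cre libraries (adjusted p = 0.00637) and by 1.44 ± 0.29 in control libraries (adjusted p = 0.000288). The Chat call in Cre libraries was lost without library 6 (log2 fold change 0.73, adjusted p = 0.0691). Il25 had a log2 fold change of 1.35 ± 0.55 in Cre libraries (adjusted p = 0.0495) and 0.26 ± 0.54 in control libraries (adjusted p = 0.694). The Il25 call was kept in 5 of 17 alternatives, with adjusted p from 0.0129 to 0.162. Leaving out library 4, 6, 10 or 12 gave Il25 an adjusted p of 0.162, 0.137, 0.15 or 0.16, and leaving out library 1, 2, 3, 7 or 9 gave 0.0661, 0.0673, 0.0643, 0.0544 or 0.0535.

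**Figure D2:**
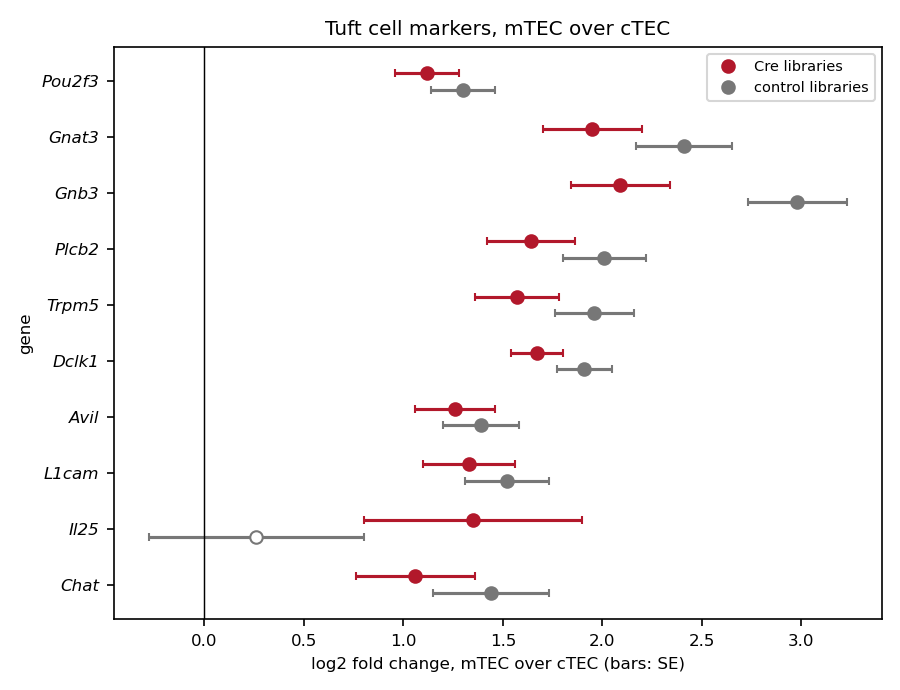
Log2 fold change of mTEC over cTEC for each tuft cell marker, in Cre libraries (red) and control libraries (grey); points are edgeR estimates from 3 libraries a group, bars are SEs, and filled points have an adjusted p under 0.05. Every filled point lies above 0, from 1.06 for Chat to 2.98 for Gnb3, and the open point is Il25 in control libraries at 0.26.

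The comparison of Cre with control mTEC addressed whether tuft cell marker levels differ in the medulla when FoxN1-Cre acts on the floxed receptor genes. L1cam fell in Cre mTEC, averaging 15.5 ± 6.46 CPM against 26.7 ± 1.35 CPM in control mTEC (SD, n = 3 each). The other 9 members did not pass the test. In libraries 4 and 5 the levels of 6 members (Trpm5, Avil, Gnb3, Plcb2, L1cam and Chat) were 43.3% to 56.7% of the control mTEC mean, and in library 6 they were 86.1% to 102% of it. Gnat3 stood at 68.3%, 40.4% and 73.0% of the control mean in libraries 4, 5 and 6. Pou2f3 stood at 89.2%, 80.1% and 85.8%, Dclk1 at 89.7%, 98.6% and 117%, and Il25, on few counts, at 198%, 92.2% and 177%.

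The share of members called was 0 of 10 higher and 1 of 10 lower, beside 0.585% higher and 1.49% lower of all genes tested. At an unadjusted p under 0.05, 6 of 10 members were lower (Trpm5, Avil, Gnb3, Gnat3, Plcb2 and L1cam), beside 8.14% of all genes, and 0 of 10 were higher. DESeq2 called 3 of 10 lower, beside 2.74% of all genes, and limma voom with quality weights called 6 of 10 lower, beside 6.36%, and neither called a member higher. The members' median log2 fold change was -0.60, beside 0.01 over all genes tested. For 2 of 10 members, Pou2f3 and L1cam, every Cre mTEC library lay under every control mTEC library, as for 12.8% of all genes, and for 0 of 10 the reverse held, as for 11.6%. For 8 of 10 members, all but Dclk1 and Il25, libraries 4 and 5 both lay under every control mTEC library, as for 21.3% of all genes, a pattern described after its values were seen.

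The L1cam log2 fold change was -0.77 ± 0.20 (SE, adjusted p = 0.0466, lower in 3 of 3 Cre libraries). It remained negative in every alternative run, and its adjusted p ran from 0.000872 to 0.289, under the threshold of 0.05 in 9 of 19 alternatives. Leaving out mTEC library 1, 2, 3, 4 or 5 gave an adjusted p of 0.153, 0.109, 0.167, 0.209 or 0.289, and leaving out cTEC library 7, 8, 9 or 12 gave 0.0598, 0.064, 0.0565 or 0.0536. Without library 6 the L1cam log2 fold change was -1.18, and 6 of 10 members were called lower (Trpm5, Avil, Gnb3, Gnat3, Plcb2 and L1cam), beside 2.81% of all genes tested in that fit.

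Among the taste genes, the log2 fold changes in mTEC were -0.71 ± 0.21 for Gnat3 (adjusted p = 0.0828), -0.67 ± 0.19 for Plcb2 (adjusted p = 0.0764), -0.64 ± 0.20 for Gnb3 (adjusted p = 0.116) and -0.52 ± 0.18 for Trpm5 (adjusted p = 0.159). Without library 6 these values were -0.88, -1.01, -0.94 and -0.92, and each passed the test. Avil had a log2 fold change of -0.66 ± 0.18 (adjusted p = 0.0702), and -1.07 without library 6. Leaving out cTEC library 10 or 11 instead brought the adjusted p of Avil to 0.0416 or 0.0376 and that of Plcb2 to 0.0416 or 0.034, and leaving out library 11 brought that of Gnat3 to 0.0422.

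The remaining members had log2 fold changes of -0.55 ± 0.26 for Chat (adjusted p = 0.345), -0.23 ± 0.15 for Pou2f3 (adjusted p = 0.518), 0.03 ± 0.13 for Dclk1 (adjusted p = 0.956) and 0.64 ± 0.50 for Il25 (adjusted p = 0.623). These 4 passed the test in 0 of their alternatives in mTEC. The estimate for Dclk1 was -0.01 with DESeq2's size factors, -0.01 with no filter on low counts and -0.09 without library 6. Its sign was therefore not settled, and the cause was not tested.

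**Figure D3:**
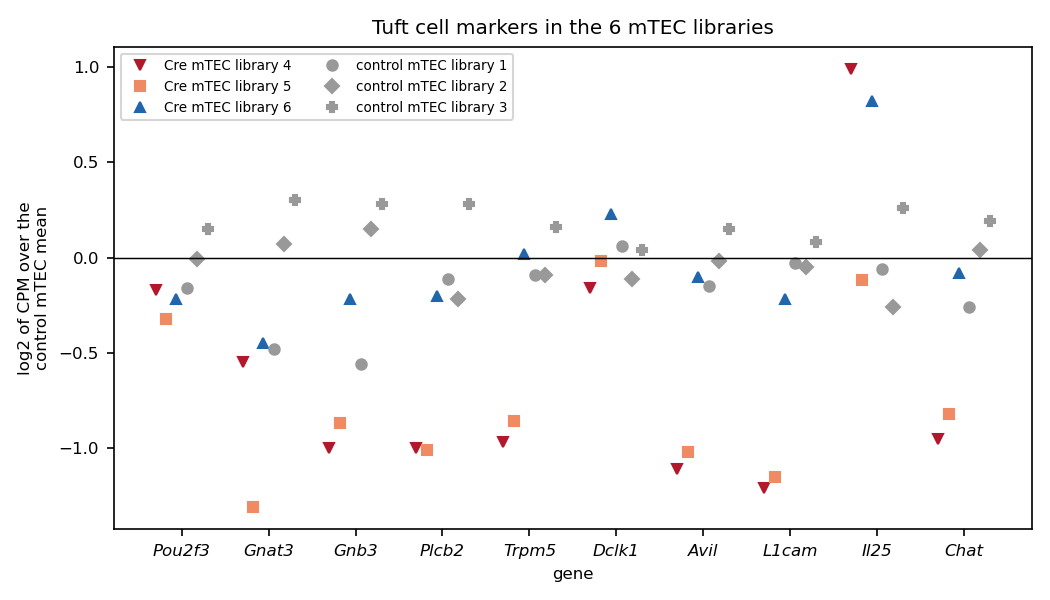
Log2 of each marker's CPM over the mean of the 3 control mTEC libraries, in each of the 6 mTEC libraries, where 0 is the control mean. Cre mTEC libraries 4 (red) and 5 (orange) lie between -1.21 and -0.82 for Gnb3, Plcb2, Trpm5, Avil, L1cam and Chat, where library 6 (blue) lies between -0.22 and 0.02.

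Some genes and marker sums outside the tuft programme had a like order of libraries, though not all markers within a sum did. Aire, the mTEC regulator of tissue antigens, had 490, 566 and 867 CPM in Cre mTEC libraries 4, 5 and 6, against 795, 862 and 935 CPM in control mTEC libraries 1, 2 and 3, and did not pass the test (log2 fold change -0.43 ± 0.20, adjusted p = 0.322). The summed level of the 4 markers of microfold mimetic cells was 247, 247 and 338 CPM in Cre mTEC, against 358, 390 and 413 CPM in control mTEC. Of these 4, edgeR called 0, with 2 lower at an unadjusted p under 0.05, and DESeq2 called 0 and limma voom 3 lower. Of all genes tested, 1.49% were lower by edgeR, 2.74% by DESeq2, 6.36% by limma voom and 8.14% at an unadjusted p under 0.05 in edgeR. These shares stand beside the counts of lower markers in each list here and below. The 10 leukocyte markers summed to 258, 248 and 362 CPM in Cre mTEC and 293, 330 and 373 CPM in control mTEC, most of it from Lyz2. That sum joined 7 markers with negative and 3 with positive log2 fold changes, Ptprc (0.15), Cd3e (0.4) and Cd3g (0.4). For those 3, library 4 was the highest mTEC library. Cd3e had 13.2, 9.79 and 8.16 CPM in Cre mTEC and 7.72, 6.02 and 9.93 CPM in control mTEC. Of the 10 leukocyte markers edgeR and DESeq2 called 0, with 1 lower at an unadjusted p under 0.05 and 1 by limma voom. The 7 mTEC markers summed to 4590, 4240 and 4930 CPM in Cre mTEC, against 5310 to 5630 CPM in control mTEC. In this sum, as in the microfold sum, library 6 also lay under every control mTEC library. Most of the sum came from H2-Aa, which had 3160, 2820 and 3050 CPM in Cre mTEC, with library 4 the highest. Of the 7 mTEC markers edgeR and DESeq2 called 0, with 3 lower at an unadjusted p under 0.05 and 4 by limma voom. The 6 mast cell and innate lymphoid markers measured, most of whose level came from the receptor gene Kit, summed to 57.4, 88.5 and 108 CPM in Cre mTEC and 105, 91.7 and 108 CPM in control mTEC. Of the 5 tested, edgeR and DESeq2 called 0, with 1 lower at an unadjusted p under 0.05 and 1 by limma voom. Of the markers of these lists and the 4 lists named next, 0 were at 0 counts in any mTEC library. Their part in the result was not tested.

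The sums of the remaining 4 lists had other orders. The 7 cTEC markers summed to 823, 860 and 643 CPM in Cre mTEC and 893, 902 and 927 CPM in control mTEC, without overlap and with library 6 the lowest. That sum joined 3 markers with positive and 4 with negative log2 fold changes. Cxcl12 had 207, 241 and 146 CPM in Cre mTEC and 141, 144 and 125 CPM in control mTEC. Prss16 had 169, 140 and 102 CPM in Cre mTEC and 108, 113 and 109 CPM in control mTEC. At an unadjusted p under 0.05 in edgeR, 1 marker was higher and 2 lower, as by limma voom, and DESeq2 called 0 higher and 1 lower. Of the 7 cTEC markers, edgeR called 0 higher and 1 lower, the chemokine Ccl25, which had 89.5, 51.0 and 72.6 CPM in Cre mTEC and 154, 168 and 188 CPM in control mTEC (log2 fold change -1.26 ± 0.24, adjusted p = 0.00862; 0.0608 in a robust fit and 0.0788 without library 5). The 4 fibroblast and endothelium markers summed to 35.6, 41.3 and 40.5 CPM in Cre mTEC and 55.3, 51.6 and 49.9 CPM in control mTEC, also without overlap. Not all of these markers went that way. Pdgfra and Pecam1 had positive log2 fold changes, 0.44 ± 0.28 and 0.03 ± 0.32 (SE), and were not called. Of the 3 tested, 1 fell, the collagen gene Col1a1, which had 14.9, 22.9 and 26.8 CPM in Cre mTEC and 42.0, 34.2 and 37.0 CPM in control mTEC (log2 fold change -0.81 ± 0.20, adjusted p = 0.0381). The Col1a1 call held in 11 of 19 alternatives and was lost without library 1, 2, 3, 4, 5, 7 or 8 (adjusted p = 0.191, 0.0689, 0.112, 0.193, 0.131, 0.0542 or 0.0579), or with at least 5 CPM required in 3 libraries (adjusted p = 0.0616). The part of these 2 lists in the result was not tested.

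The 5 neuroendocrine mimetic markers summed to 297, 222 and 321 CPM in Cre mTEC and 324, 257 and 327 CPM in control mTEC. Of the 4 tested, edgeR, DESeq2 and limma voom called 0. Insm1 had 154, 143 and 214 CPM in Cre mTEC and 202, 162 and 215 CPM in control mTEC. Chgb had 13.4, 13.6 and 18.2 CPM in Cre mTEC and 15.6, 16.6 and 19.2 CPM in control mTEC. Both had libraries 4 and 5 under every control mTEC library and library 6 within the control range. Chga, Neurod1 and Snap25 had other orders. The 6 neuron and Schwann cell markers summed to 24.2, 27.1 and 27.6 CPM in Cre mTEC and 21.7, 22.5 and 24.0 CPM in control mTEC. Foxn1, the gene whose promoter drives the Cre, fell in Cre mTEC to 156, 34.0 and 57.7 CPM, against 291, 232 and 240 CPM in control mTEC (log2 fold change -1.63 ± 0.36, adjusted p = 0.0216), and its lowest libraries were 5 and 6, not 4 and 5. The Foxn1 call held in 14 of 19 alternatives and was lost without library 1, 3 or 5 (adjusted p = 0.0995, 0.0579 or 0.0997), with DESeq2 (adjusted p = 0.0524) and in a robust fit (adjusted p = 0.185).

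In cTEC no tuft cell marker passed the test between Cre and control libraries. By edgeR 0 of 10 were higher and 0 of 10 lower, beside 5.62% and 3.38% of all genes tested, and at an unadjusted p under 0.05 2 of 10 were lower (Avil and L1cam), beside 8.54% of all genes, and 0 of 10 higher. DESeq2 called 0 of 10 lower, beside 3.75% of all genes, and limma voom called 1 of 10 lower (Avil), beside 5.08%. Avil averaged 29.7 ± 3.35 CPM in Cre cTEC and 43.1 ± 3.32 CPM in control cTEC (SD, n = 3 each), or -0.54 ± 0.20 (SE) on the log2 scale (adjusted p = 0.126). L1cam averaged 6.23 ± 0.467 CPM in Cre cTEC and 9.33 ± 0.579 CPM in control cTEC, with a log2 fold change of -0.59 ± 0.24 (adjusted p = 0.17). Without mTEC library 6, which is not among the libraries compared, the adjusted p was 0.0104 for Avil and 0.0393 for L1cam.

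For these 2 of 10 members every Cre cTEC library lay under every control cTEC library, as for 10.1% of all genes, and for 0 of 10 the reverse held, as for 10.2%. The other log2 fold changes in cTEC ran from -0.45 ± 0.60 for Il25 to 0.26 ± 0.14 for Dclk1, and the members' median was -0.21, beside -0.02 over all genes. The 10 members together summed to 144, 159 and 129 CPM in Cre cTEC and 161, 157 and 149 CPM in control cTEC, which overlapped. In mTEC the same sum was 354, 366 and 537 CPM in Cre and 503, 521 and 597 CPM in control libraries.

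The genotype effect was not shown to differ between the cell types for any member. For the cTEC effect minus the mTEC effect, edgeR called 0 of 10 higher and 0 of 10 lower, beside 2.92% and 1.08% of all genes, and 1 of 10 (Gnb3) was higher at an unadjusted p under 0.05, beside 9.34%. DESeq2 and limma voom each called 0 of 10 higher, beside 5.22% and 4.7% of all genes, and 0 of 10 lower. Gnb3 had the largest positive difference, 0.89 ± 0.36 (SE, adjusted p = 0.211), from a log2 fold change of 0.25 ± 0.30 in cTEC and -0.64 ± 0.20 in mTEC. Without library 6 the difference passed for Gnb3 (1.19, adjusted p = 0.047) and for Trpm5 (0.79, adjusted p = 0.0274). The Il25 difference was -1.09 ± 0.78 (adjusted p = 0.549).

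**Figure D4:**
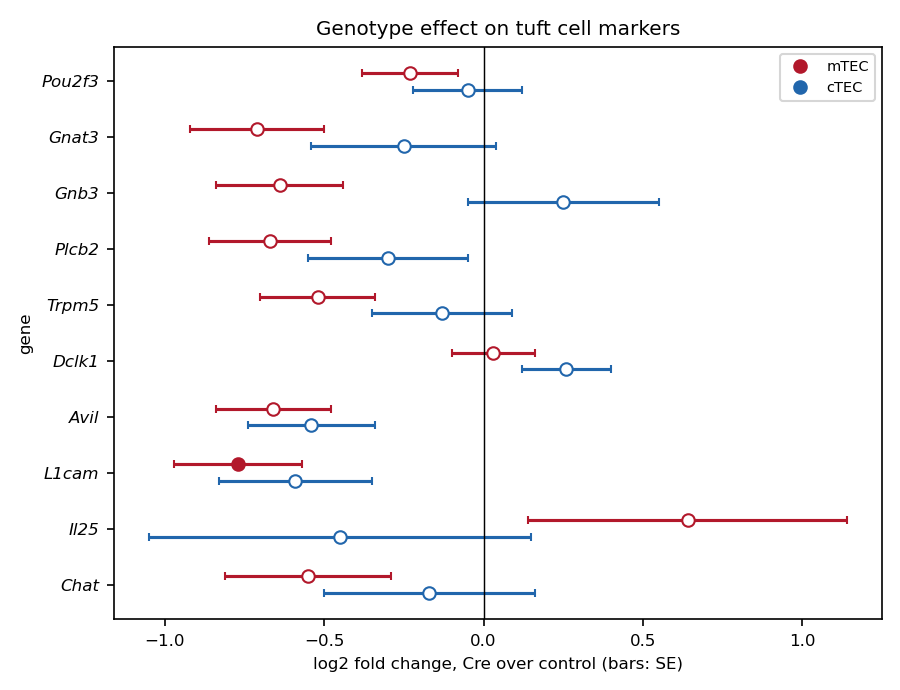
Log2 fold change of Cre over control for each tuft cell marker, in mTEC (red) and cTEC (blue); points are edgeR estimates from 3 libraries a group, bars are SEs, and filled points have an adjusted p under 0.05. The only filled point is L1cam in mTEC at -0.77, and the mTEC estimates of the taste genes lie between -0.71 and -0.52.

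A wider set of 40 tuft cell genes in 4 lists gave the same medullary direction with exceptions. Of 31 tested, 21 were higher and 4 lower in Cre mTEC than in Cre cTEC, beside 25.1% and 24.5% of all genes. In the same comparison of control libraries 23 were higher and 3 lower, beside 29.3% and 30.0%. The transcription factor Spib averaged 329 ± 37.0 CPM in Cre mTEC, 318 ± 7.58 CPM in control mTEC, 18.8 ± 1.54 CPM in Cre cTEC and 15.3 ± 4.05 CPM in control cTEC (SD, n = 3 each). Whether the Spib level came from tuft cells or from other mTECs was not tested. In control libraries the mTEC markers Tnfrsf11a and Fezf2 had log2 fold changes of mTEC over cTEC of 4.33 and 4.45. In the same libraries the log2 fold change was 4.38 for Spib and 2.43 for the homeobox factor Hmx3. Among the taste genes it was 1.57 for the G protein gamma subunit Gng13, 1.27 for the calcium release channel Itpr3, 1.01 for the sweet and umami receptor subunit Tas1r3 (lost without library 9, adjusted p = 0.0671) and 0.87 for the G protein regulator Rgs13.

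Among the eicosanoid genes it was 2.90 for the leukotriene synthase Ltc4s, 1.20 for the prostaglandin D synthase Hpgds and 1.07 for the lipoxygenase Alox5. The 3 listed genes that were lower in control mTEC were the cyclooxygenase Ptgs1 at -0.98, the keratin Krt18 at -1.13 and the transcription factor Ascl2 at -1.54, with Krt18 named after its values were seen. Among the cytoskeleton and signalling genes it was 2.90 for villin (Vil1), 2.24 for espin (Espn), 1.87 for Sh2d6 and 1.64 for Pik3r5, a regulatory subunit of phosphoinositide 3-kinase.

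Between Cre and control mTEC, 0 of the 31 were higher and 2 were lower by edgeR, beside 0.585% and 1.49% of all genes tested. At an unadjusted p under 0.05, 0 were higher and 8 lower, beside 8.14% of all genes lower. DESeq2 called 0 higher and 3 lower, beside 2.74% lower, and limma voom 0 higher and 8 lower, beside 6.36% lower. The lists' joint median log2 fold change was -0.25, beside 0.01 over all genes. Pik3r5 had 27.5, 27.7 and 42.0 CPM in Cre mTEC and 50.8, 50.4 and 65.5 CPM in control mTEC. It fell by 0.77 on the log2 scale (SE 0.16, adjusted p = 0.0158), a call lost without library 3, 4 or 5 (adjusted p = 0.103, 0.0767 or 0.122). Itpr3, the channel that releases calcium upstream of Trpm5, had 31.3, 30.7 and 42.0 CPM in Cre mTEC and 60.2, 46.4 and 62.3 CPM in control mTEC. It fell by 0.69 (SE 0.16, adjusted p = 0.0294), a call lost without library 1, 3, 4 or 5 (adjusted p = 0.145, 0.144, 0.108 or 0.187).

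Between Cre and control cTEC, 2 of the 31 were higher and 4 lower by edgeR, beside 5.62% and 3.38% of all genes tested. DESeq2 called 3 higher and 4 lower, beside 3.75% of all genes lower, and limma voom 3 higher and 4 lower, beside 5.08% lower. Higher and lower calls together, DESeq2 called 1837 and limma voom 2193 of the 17268 genes. The median log2 fold change of the 31 was -0.24, beside -0.02 over all genes. Itpr3 had 57.4, 44.5 and 38.0 CPM in Cre cTEC and 24.2, 25.9 and 20.3 CPM in control cTEC, and rose by 1.00 ± 0.17 (SE) on the log2 scale (adjusted p = 0.000773). The Itpr3 call in cTEC held in 19 of 19 alternatives.

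The kinase Bmx had 11.7, 6.22 and 8.33 CPM in Cre cTEC and 19.0, 17.0 and 13.1 CPM in control cTEC, and fell by 0.85 (SE 0.25, adjusted p = 0.0373; lost without library 7, 8, 11 or 12, adjusted p = 0.16, 0.0998, 0.0963 or 0.116). Rgs13 had 9.84, 12.6 and 11.8 CPM in Cre cTEC and 18.5, 17.0 and 20.7 CPM in control cTEC, and fell by 0.73 (SE 0.22, adjusted p = 0.0458). Its call held in 9 of 19 alternatives and was lost without library 2, 3, 4, 7, 8, 9, 10 or 12, with adjusted p of 0.0593, 0.0504, 0.0542, 0.111, 0.0682, 0.174, 0.178 and 0.0871. Both genes were lower in 3 of 3 Cre cTEC libraries than in every control cTEC library.

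The eicosanoid genes Ptgs1 (30.2, 33.2 and 33.6 CPM in Cre cTEC, 41.0, 50.8 and 50.7 CPM in control cTEC) and Alox5 (18.9, 19.6 and 20.2 CPM in Cre cTEC, 30.4, 27.2 and 26.4 CPM in control cTEC) fell by 0.56 and 0.52, with adjusted p of 0.0222 and 0.019. Leaving out library 7 or 10 raised the adjusted p of Alox5 to 0.0929 or 0.0727, and leaving out library 8, 9 or 10 raised that of Ptgs1 to 0.0837, 0.103 or 0.0883, so these calls were lost. The cTEC libraries also differed in cTEC markers, whose 7 genes summed to 14400, 5750 and 10200 CPM in Cre cTEC and 5060, 6430 and 5440 CPM in control cTEC, and their part in these results was not tested.

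Within groups, the members varied together in part. Pearson correlations of log2 CPM after removal of each group's mean, over the 12 libraries, ran from -0.1 to 0.91 for all 45 pairs of members. They ran from 0.62 to 0.91 for the 15 pairs among Trpm5, Avil, Gnb3, Plcb2, L1cam and Chat, 6 genes grouped after these values were seen. Correlations with the 9 other members were -0.1 to 0.4 for Pou2f3, 0.06 to 0.49 for Il25, -0.06 to 0.61 for Gnat3 and -0.06 to 0.71 for Dclk1. The mean deviation of the members from their own group's mean was -0.15, -0.27 and 0.42 on the log2 scale in Cre mTEC libraries 4, 5 and 6, and between -0.17 and 0.2 in the other 9 libraries. These correlations describe libraries that share their scaling.

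The 10 genes most like the members' mean profile by this measure, among 12354 genes averaging at least 5 CPM, were Pck1 (r = 0.938), Pik3r5 (0.930), Tc2n (0.922), Dusp4 (0.913), Gabrd (0.904), Il23a (0.901), Slc40a1 (0.891), Il10ra (0.891), Cd55 (0.888) and the member Plcb2 (0.886). Pck1, an enzyme of gluconeogenesis, had 10.5, 9.03 and 15.8 CPM in Cre mTEC and 21.1, 20.3 and 25.2 CPM in control mTEC, and fell by 0.91 on the log2 scale (SE 0.20, adjusted p = 0.0198). Dusp4, a phosphatase of mitogen-activated kinases, had 87.3, 83.7 and 126 CPM in Cre mTEC and 140, 131 and 160 CPM in control mTEC, and fell by 0.53 (SE 0.13, adjusted p = 0.0395). Of the 9 genes that are no members, 3 fell in Cre mTEC (Pck1, Dusp4 and Pik3r5, which is on a wider tuft list), beside 1.49% of all genes tested. The ranking used the same libraries as the test. The other 6 did not pass, with log2 fold changes from -0.30 for Gabrd to 0.11 for Tc2n. The Pck1 call held in 15 of 19 alternatives and was lost without library 1, 3, 4 or 5 (adjusted p = 0.0803, 0.126, 0.0863 or 0.15). The Dusp4 call held in 10 of 19 and was lost without library 1, 2, 3, 4, 5, 7, 8, 9 or 12 (adjusted p = 0.125, 0.0606, 0.193, 0.157, 0.274, 0.053, 0.0533, 0.0526 or 0.0511). The 100 genes most like the profile held 6 of the 10 members, which make up that profile and so resemble it in part by construction. They also held 0 of 8 listed transcription factors, 1 of 12 taste genes, 2 of 8 eicosanoid and effector genes and 4 of 12 cytoskeleton and signalling genes. Listed genes averaging under 5 CPM were not among the 12354 ranked and could not enter. These counts are therefore not shares of the listed genes that were ranked, and a low count does not show a lack of likeness.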

How the data were processed

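Libraries of RNA from sorted cells were made, per the labels' protocols, with version 4 of a SMARTer kit for low input, which does not mark strand. What the authors deposited was a single matrix of raw counts by gene symbol. The submitters' processing notes name STAR, HTSeq, edgeR and build mm9. Versions, gene annotation, strand setting and handling of multiply matching reads: not given in the sources used here.

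CPM with TMM factors and edgeR's quasi-likelihood test (edgeR 4.0.16, R 4.3.3) were computed here from these counts after filterByExpr by group. All 12 libraries and 4 groups entered 1 fit, leaving 8 residual degrees of freedom. The test was two-sided, with Benjamini-Hochberg adjustment over all 17268 genes and a threshold of 0.05. The 5 comparisons were genotype in mTEC, genotype in cTEC, their difference (cTEC minus mTEC), and mTEC over cTEC in each genotype. Log2 fold changes have the group named first on top. The procedure was tested on simulated data. Precision is set by 3 libraries a group and by depth. No number is common to any of the groups and the labels do not give the animals, so any pairing is unknown and none was fitted.

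As alternatives the comparisons were run with DESeq2's size factors in edgeR, with DESeq2 (1.42.0), with limma voom and quality weights (version 3.58.1 of limma), with a robust fit, unfiltered, with at least 5 CPM required in 3 libraries, on the 6 compared libraries alone, and leaving out each library. The members and the gene lists were chosen with earlier results of these data known. The genes named were the members, up to 4 called genes of each wider list by p in the genotype comparisons and in mTEC over cTEC in control, the 10 genes most like the members' mean profile, and context genes. Transcript lengths and exon overlaps came from GENCODE M21 (GRCm38), a different build from that of the counts, matched by symbol. Slc18a3, Kctd12, Siglecf and Mcpt5 were not analysed here. A gene that met the naming rule is not reported here.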

Additional observations from a re-analysis of the deposited data

Results flagged for a closer look

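Itpr3, the inositol trisphosphate receptor that releases calcium in the taste pathway, was flagged because its genotype effect differed between the cell types. Such a difference was not particular to Itpr3. By the same test 2.92% of all genes were higher and 1.08% lower. Of the 7 cTEC markers 4 were higher, 0 lower and 3 not called, with differences of 2.0 for Ccl25 and 1.77 for Dll4 among those called. The cTEC effect minus the mTEC effect was 1.7 on the log2 scale (SE 0.24, edgeR adjusted p = 0.000969), and it passed in 18 of 18 alternatives (adjusted p from 1.76e-13 to 0.00443). Itpr3 averaged 46.7 ± 9.90 CPM in Cre cTEC and 23.5 ± 2.89 CPM in control cTEC, and 34.7 ± 6.36 CPM in Cre mTEC and 56.3 ± 8.65 CPM in control mTEC (SD, n = 3 each). Itpr3 was higher in 3 of 3 Cre cTEC libraries and lower in 3 of 3 Cre mTEC libraries than in every control library of the same cell type. It was also 1 of the 4 wider tuft cell genes that were lower in mTEC than in cTEC in Cre libraries (log2 fold change -0.43, adjusted p = 0.0364), while in control libraries it was higher in mTEC (1.27, adjusted p = 3.1e-06). Itpr3 is not restricted to tuft cells, and none of the 10 tuft cell markers showed such a difference by the same test.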

How the results depend on the processing

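Of the 10 tuft cell markers, 1 was called in mTEC between genotypes, and the count was 3 with DESeq2, 6 with limma voom, 6 with no filter on low counts, 0 with 5 CPM required in 3 libraries, and 0 to 6 when each library was left out (6 without library 6). In cTEC the count was 0, and 1 with limma voom, with no filter or with only the 6 libraries compared, and 0 to 2 with a library left out. For the difference of effects it was 0, and 1 with no filter and 0 to 2 with a library left out. The counts for mTEC over cTEC stayed within 8 to 10 in Cre and at 9 in control libraries. Signs turned for values that had not passed the test: Dclk1 in mTEC was -0.01 with DESeq2's size factors, -0.01 with DESeq2 and -0.01 with no filter, and ran from -0.09 to 0.07 with a library left out; Pou2f3 in cTEC was 0.01 with no filter and ran from -0.23 to 0.08. With a library left out, Il25 in cTEC ran from -0.9 to 0.33, Il25 in mTEC over cTEC in control libraries from -0.06 to 1.07, Avil in the difference of effects from -0.01 to 0.54 and Chat in cTEC from -0.34 to 0.07. The cause of these changes was not tested. Over all genes, the calls in mTEC numbered 358, against 599 with DESeq2, 1672 with limma voom, 1049 with no filter, 1026 with only the 6 libraries compared and 78 to 984 with a library left out. In cTEC they numbered 1555 (1018 to 2294 with a library left out), and for the difference of effects 692, against 1131 with DESeq2, 1398 with limma voom, 1140 with no filter and 371 to 1644 with a library left out. No paired analysis was possible because the groups share no library number. Depth limits Il25 most, at 4 to 17 counts a library.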
